A study of Rattus norvegicus with 5 samples.

Results

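The collagen genes of the rat cornea were followed in whole-cornea RNA sequencing, with 2 libraries of transgenic P1 hMR rats and 3 of wild-type rats. Members were all gene symbols of the form Col, number, a, number in the deposited gene table, which gave 41 of 20339 genes. The isoform table added 0 further names of that form, and 4 other collagen symbols listed for the classes below are not analysed here. All 5 libraries came from male Sprague-Dawley rats aged 6 months. Transgenic rats carry and overexpress human NR3C2, which encodes the mineralocorticoid receptor (MR), a nuclear receptor for aldosterone and for glucocorticoids; wild-type rats do not carry it. The promoter that drives the transgene, the number of founder lines and what P1 stands for are not given in the sources used here. The labels do not say how many rats each library holds, so p-values measure only the spread between these libraries, which may be technical.

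Collagens are triple helices of 3 chains, each chain from its own gene or several from the same gene, and nearly all of the corneal stroma is built on them. Fibrillar collagens (types I, III, V, XI and others) form the thin, regularly spaced fibrils that make the stroma transparent, and type V is known for starting fibrils and limiting their width. FACIT collagens such as types XII and XIV sit on fibril surfaces, type VI forms beaded filaments between fibrils, type IV forms the networks of basement membranes, and type VIII forms the hexagonal lattice of Descemet's membrane under the endothelium. Types VII and XVII anchor the epithelium to the stroma.

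Libraries held between 20874010 and 30449675 counts over all genes. Human NR3C2 had 1094 and 1146 counts in transgenic corneas 1 and 2 and 0 in each wild-type cornea. Krt12, the keratin of the corneal epithelium, took 3.33% to 4.49% of counts. Levels are given as CPM, a gene's count scaled to its library's TMM-adjusted size; they are not per length, so they compare a gene between libraries and not 1 gene with another. In a bulk sample, fewer cells of a type and less RNA per cell cannot be told apart.

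No collagen gene passed the edgeR test at an adjusted p of 0.05, yet most had higher values in transgenic corneas. Of the 41 genes, 38 had enough counts to be tested, and 0 rose and 0 fell, against 0.00752% of all 13304 genes called in either direction. Log2 fold changes (transgenic over wild-type) were above 0 for 34 of the 38, against 48.2% of all tested genes, with a median of 0.32 beside -0.01 over all tested genes. The 4 genes below 0 were Col5a3, Col18a1, Col20a1 and Col28a1. Unadjusted p-values were under 0.05 for 17 collagen genes, all 17 with higher values in transgenic corneas, where 4.39% of all tested genes met that rule upward and 1.93% downward. For 20 collagen genes the lower transgenic value exceeded the highest wild-type one (12.0% of all tested genes), and for 2, Col5a3 and Col28a1, the order was the opposite (10.7%). Col2a1 is counted in the 34, the 17 and the 20, though it entered the test through the transgenic libraries. The count of 17 was 9 without transgenic cornea 2 and between 12 and 19 without any other library. DESeq2 called 2 collagen genes higher, Col5a1 (DESeq2 adjusted p = 0.00132) and Col4a4 (DESeq2 adjusted p = 0.0409). Of the 12521 genes to which it gave an adjusted p, it called 0.455% in either direction and 0.311% higher. Over the tested genes, the median deviation of a library from the wild-type mean on the log2(CPM + 0.5) scale was 0.25 and 0.39 in transgenic corneas 1 and 2, against 0.00, -0.03 and -0.04 in wild-type corneas 1 to 3. Most other genes of stromal cells had higher values too: 8 of 9 keratocyte markers other than collagens lay above 0. They summed to 2211 and 2269 CPM in transgenic corneas, against 1769, 1787 and 1827 CPM in wild-type ones. Groups were apart for 6 of the 9 and overlapped for Lum, Dcn and Angptl7 (log2 fold changes -0.01, 0.07 and 0.75). The part of stromal cells in the collagen values was not tested.

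**Figure D1:**
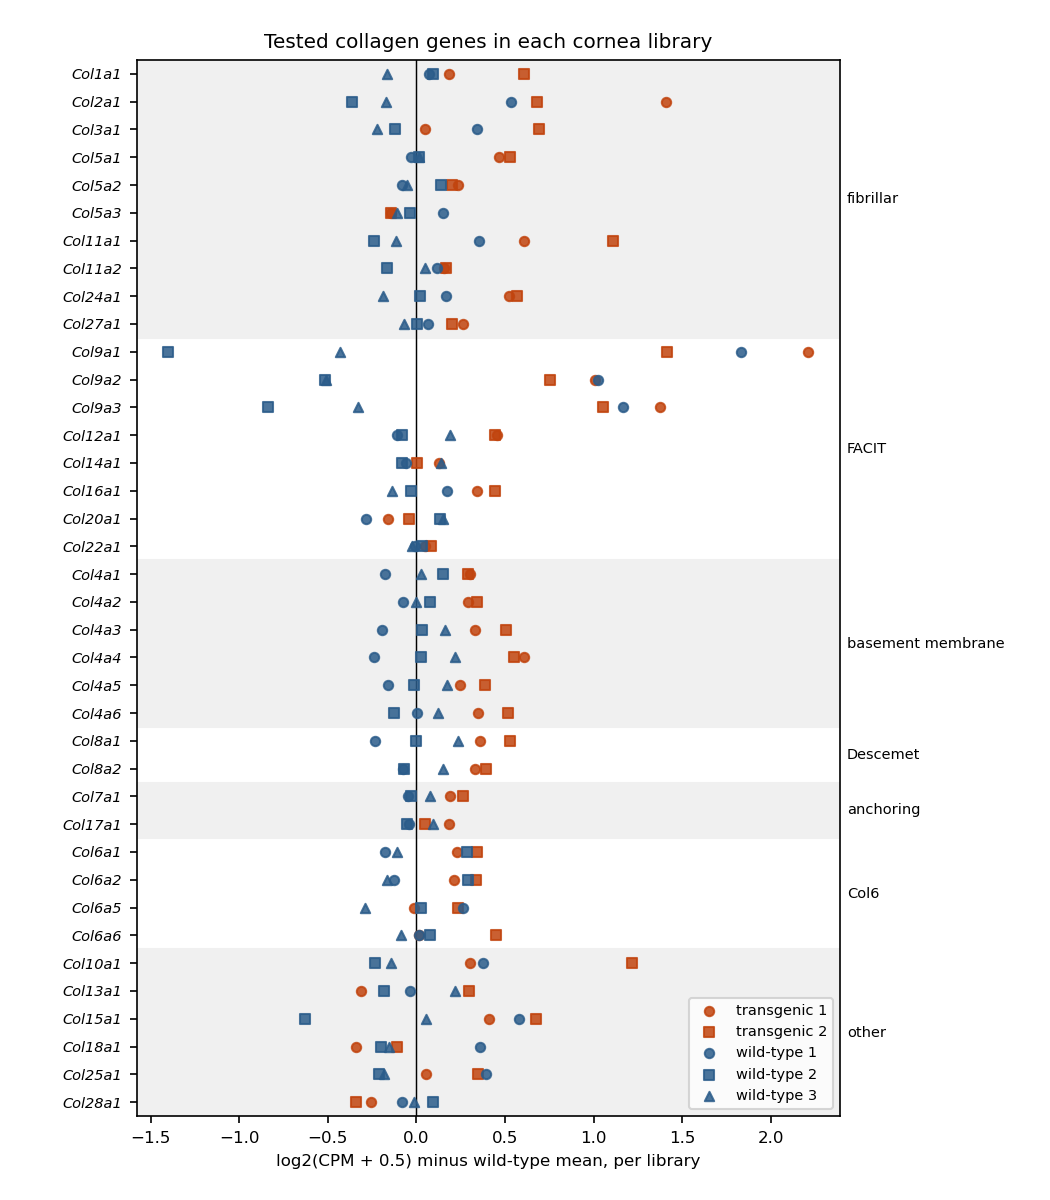
Each tested collagen gene (rows, by class) in each library, as log2(CPM + 0.5) minus the mean of the 3 wild-type libraries; orange symbols are transgenic corneas, blue symbols wild-type ones. Both orange symbols lie right of all blue ones in 20 of 38 rows, the 6 type IV rows among them, and the widest spread within wild-type is in Col9a1.

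Among fibrillar collagens, 9 of 10 tested genes had log2 fold changes above 0, with a class median of 0.40. The 9 include Col2a1, which entered the test through the transgenic libraries. Col5a1, the main type V chain, had 92.7 and 97.0 CPM in transgenic corneas 1 and 2, against 65.5, 67.8 and 67.8 CPM in wild-type corneas 1 to 3. The groups did not overlap, and the libraries of each genotype lay close together. Its log2 fold change was 0.50 ± 0.09 (SE; edgeR adjusted p = 0.380), the smallest p of the 38 genes. Col5a2, the partner chain of type V, had 216 and 212 CPM in transgenic corneas, against 173, 202 and 177 CPM in wild-type ones (0.21 ± 0.10, edgeR adjusted p = 0.804). The third type V chain, Col5a3, went the other way: 11.6 CPM in both transgenic corneas and 14.3, 12.5 and 11.9 CPM in wild-type corneas 1 to 3.

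Col1a1, a chain of type I collagen, the bulk of the stroma, had 673 and 901 CPM in transgenic corneas and 622, 631 and 528 CPM in wild-type ones. The difference rested mainly on transgenic cornea 2: the log2 fold change was 0.41 ± 0.14 (edgeR adjusted p = 0.695), and 0.18 without that library. Col3a1, the chain of type III collagen, had 66.7 and 104 CPM in transgenic corneas, against 81.8, 59.3 and 55.2 CPM in wild-type corneas, and transgenic cornea 1 lay below wild-type cornea 1. Col11a1, a chain of type XI collagen that is related to type V, had 7.09 and 10.3 CPM against 5.85, 3.72 and 4.10 CPM (0.92 ± 0.25, edgeR adjusted p = 0.492). Its groups did not overlap, and transgenic cornea 2 was again the higher of the transgenic pair. The minor fibrillar genes Col24a1 and Col27a1 averaged 4.51 ± 0.106 and 23.4 ± 0.745 CPM in transgenic corneas (SD, n = 2) and 2.95 ± 0.428 and 19.9 ± 0.970 CPM in wild-type corneas (SD, n = 3). Col11a2 had 8.87 and 8.95 CPM in transgenic corneas, beside 8.63, 6.998 and 8.20 CPM in wild-type ones, close to each other though not overlapping.

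**Figure D2:**
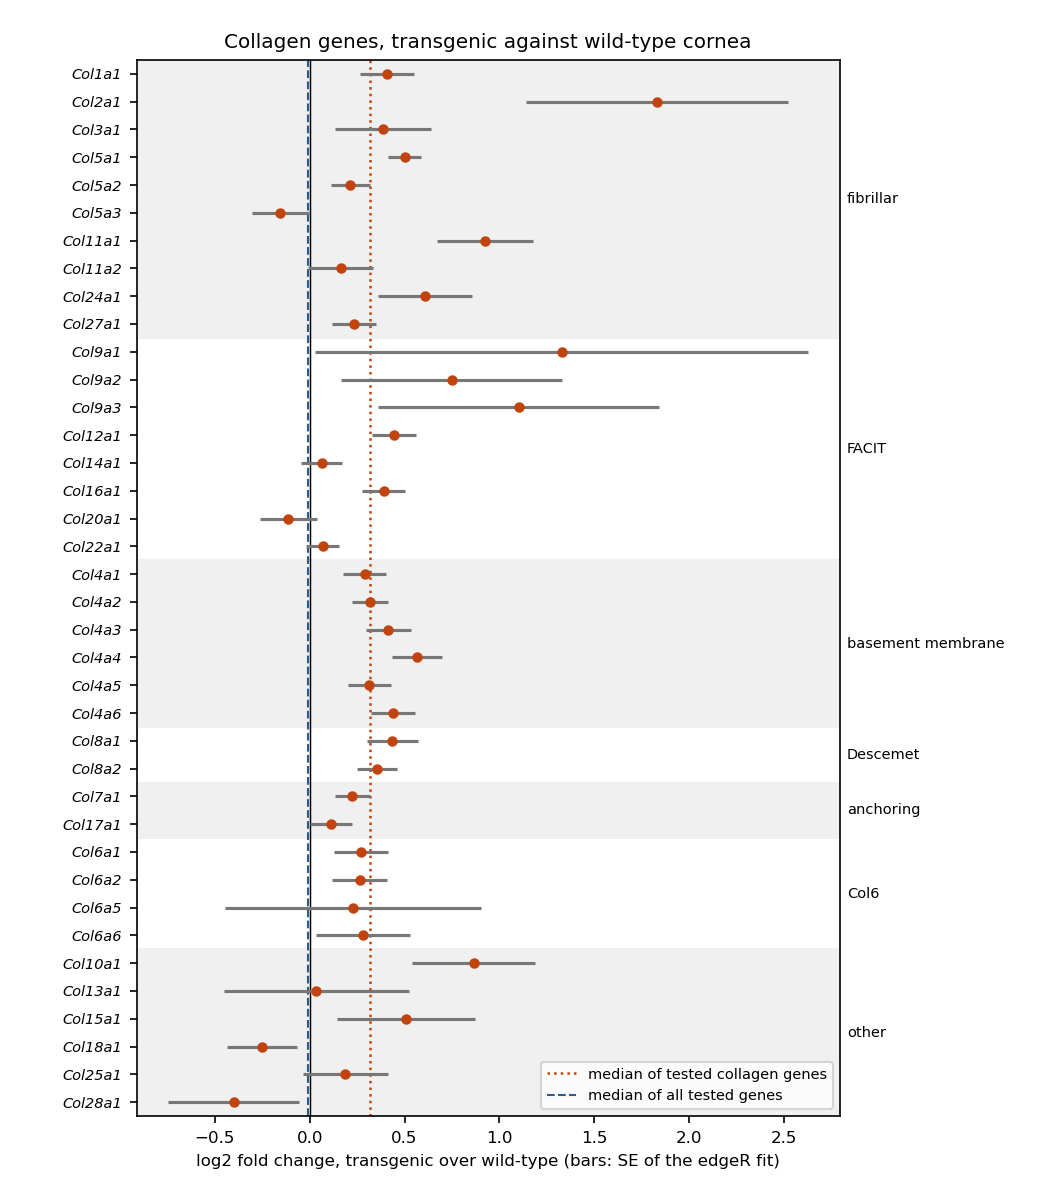
Log2 fold change of each tested collagen gene, transgenic over wild-type, with the standard error of the edgeR fit as bars; the dotted line is the median of these genes (0.32) and the dashed line that of all tested genes (-0.01). The 6 type IV points lie between 0.29 and 0.57, and Col9a1 and Col2a1 have long bars (SE 1.30 and 0.69).

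Of the FACIT collagens 7 of 8 tested genes had log2 fold changes above 0, with a class median of 0.42 and a wide range among the members. The 3 largest, 1.33, 1.10 and 0.75, were those of the type IX genes Col9a1, Col9a3 and Col9a2, described below, whose groups overlapped. The rest ran from -0.11 to 0.44, so the class median leans on type IX. Groups were apart in 3 of the 8 genes and overlapped in 5. Col12a1, whose product binds fibrils and is made by stromal cells, had 966 and 958 CPM in transgenic corneas, against 653, 666 and 802 CPM in wild-type corneas. No transgenic value overlapped a wild-type one, and wild-type cornea 3 was the nearest (log2 fold change 0.44 ± 0.12, edgeR adjusted p = 0.492). Col16a1 had 60.7 and 65.4 CPM in transgenic corneas, against 54.1, 46.7 and 43.3 CPM in wild-type ones (0.39 ± 0.11, edgeR adjusted p = 0.531). Col14a1, the other abundant gene of the class, overlapped, with 380 and 350 CPM in transgenic corneas and 335, 330 and 384 CPM in wild-type corneas (0.06 ± 0.11, edgeR adjusted p = 0.941; 0.00 without transgenic cornea 1 and 0.14 without wild-type cornea 3). Col22a1 lay between 61.6 and 66.6 CPM in all 5 libraries, with both transgenic corneas on top, and Col20a1 between 20.9 and 28.5 CPM with overlapping groups. Col19a1 had 0 to 9 counts per library and was not tested.

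All 6 type IV genes had both transgenic values above every wild-type value, as did 12.0% of all tested genes. All 6 also had an unadjusted edgeR p under 0.05, where 4.39% of all tested genes met that rule upward. None passed after adjustment (edgeR adjusted p from 0.467 to 0.741). The genes lie in pairs and may not vary independently, so they are not read as 6 separate observations. Type IV chains pair by gene: each pair lies head to head in the genome, and the chains of Col4a3, Col4a4 and Col4a5 assemble into a network that is known in Descemet's membrane and kidney, while those of Col4a1 and Col4a2 are found in nearly all basement membranes. Between the annotated starts of Col4a1 and Col4a2 lie 76 bases, against 412 for Col4a3 and Col4a4 and 1414 for Col4a5 and Col4a6. RefSeq sequences (build GRCr8) between or before these starts are shown because all 6 type IV genes had non-overlapping groups and lie in pairs. Capitals mark the GC box, GGGCGG read on either strand; its end lies 67, 54 and 47 bases before the starts of Col4a3, Col4a5 and Col4a6. The window of Col4a4 held no GC box, and none of its sequence is shown.
Col4a1 and Col4a2, all bases between both starts, chr16:84885521-84885596, + strand: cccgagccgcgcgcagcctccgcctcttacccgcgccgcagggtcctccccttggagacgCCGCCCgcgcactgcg
Col4a3, chr9:91323906-91323935, + strand: gagaggggacgaGGGCGGgacctcagccac
Col4a5, chrX:109907288-109907317, + strand: ccggcggggaggGGGCGGtgcgggaggaga
Col4a6, chrX:109905979-109906008, - strand: cagcagacagccCCGCCCcgttcccctcca
Of the 41 collagen genes, 32 had a window of 250 bases before an annotated start, and 18 of these (56.2%) held a GC box, as did 30.5% of all 33469 windows. CCAAT, searched on both strands, was in 31.2% of the 32 and in 34.0% of all windows, and TATAAA in 9.38% and 12.9%.

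Col4a4 had the widest difference of the 6 type IV genes. Its values were 314 and 302 CPM in transgenic corneas, against 174, 210 and 240 CPM in wild-type corneas 1 to 3, with a log2 fold change of 0.57 ± 0.13 (edgeR adjusted p = 0.467). Its neighbour Col4a3 had 137 and 155 CPM in transgenic corneas, against 95.5, 112 and 122 CPM in wild-type corneas. In both genes wild-type cornea 1 was the lowest library and wild-type cornea 3 the nearest to the transgenic ones. Col4a1 had 369 and 366 CPM in transgenic corneas, against 266, 332.7 and 305 CPM in wild-type corneas (0.29 ± 0.11, edgeR adjusted p = 0.741). Col4a2 had 250 and 258 CPM, against 193, 215 and 203 CPM. On the X chromosome, Col4a5 had 99.5 and 110 CPM in transgenic corneas, against 74.9, 83.1 and 94.8 CPM in wild-type ones. Col4a6 had 38.9 and 43.8 CPM, against 30.5, 27.9 and 33.2 CPM (0.44 ± 0.12, edgeR adjusted p = 0.492). Transgenic and wild-type corneas were thus separated in all 6 genes, by the narrowest margin in Col4a5. Blood vessel markers, whose cells also make type IV chains, had 5 of 5 genes above 0. They summed to 82.0 and 95.9 CPM in transgenic corneas, against 73.9, 59.3 and 59.6 CPM in wild-type ones. Pdgfrb alone held 42.6 and 50.8 CPM of the transgenic sums. Groups were apart for 3 of the 5 and overlapped for Tek (log2 fold change 0.01) and Cdh5. In these 2 genes wild-type cornea 1 was the highest library, at 10.1 and 5.78 CPM. The part of vessel cells in the type IV values was not tested.

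Ratios between chain genes within a library do not depend on its depth. With 2 against 3 libraries no exact permutation test can pass 0.05, so ratios are given without a test. Col4a1 over Col4a2 was 1.48 and 1.42 in transgenic corneas and 1.38, 1.55 and 1.504 in wild-type corneas, a 1.13-fold span over all 5 libraries. Col6a1 over Col6a2, chains of the same type VI molecule, was the steadiest ratio computed, at 0.933 and 0.922 against 0.889, 0.919 and 0.959. Of the 11 ratios computed, 3 had groups without overlap, all 3 higher in transgenic corneas. Among single genes 12.0% of all tested were without overlap upward and 10.7% downward, so little is read from a count of 3. Col4a4 over Col4a1 was 0.851 and 0.825 in transgenic corneas, against 0.657, 0.631 and 0.787 in wild-type ones. Col5a1 over Col5a2 was 0.429 and 0.458, against 0.378, 0.336 and 0.382, and Col12a1 over Col14a1 was 2.54 and 2.74, against 1.95, 2.02 and 2.09. Overlap between the genotypes was seen for the other 6 ratios: Col4a3 over Col4a4, Col4a5 over Col4a6, Col5a1 over Col1a1, Col3a1 over Col1a1, Col7a1 over Col17a1 and Col8a1 over Col8a2. The 11 pairs were chosen with earlier results of these data known.

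**Figure D3:**
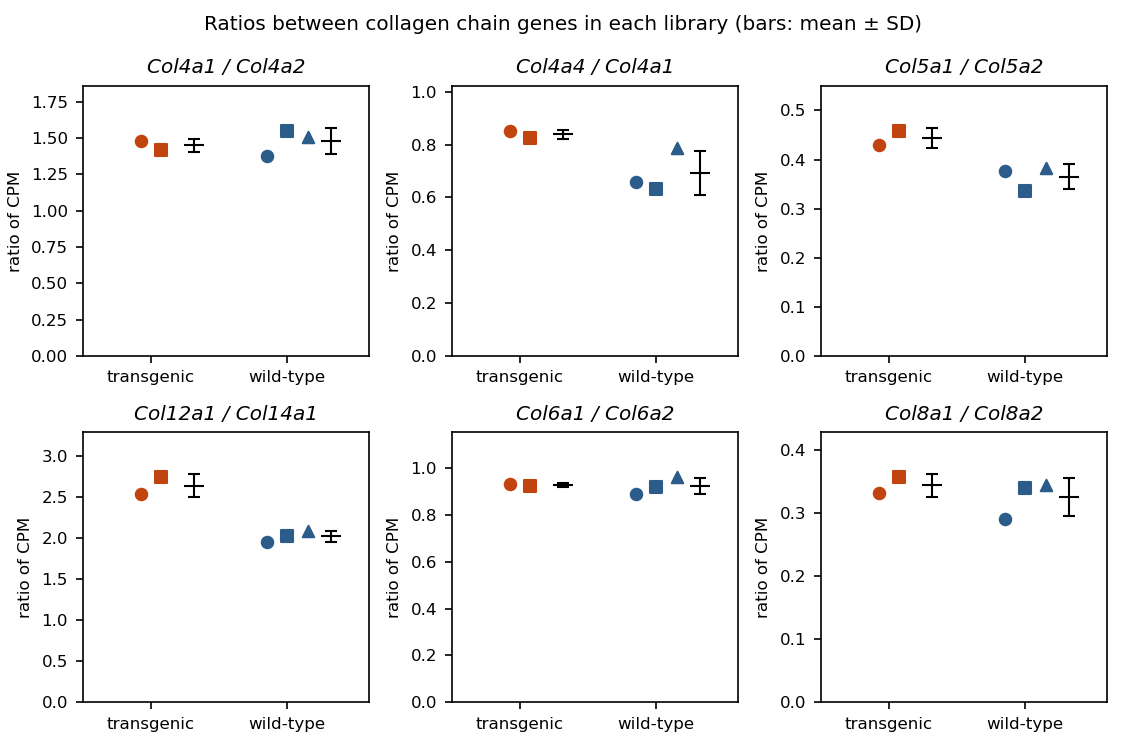
CPM ratio of 6 pairs of collagen genes in each library (circles, squares and triangles for libraries 1, 2 and 3 of a genotype), with the mean ± SD of 2 transgenic and 3 wild-type corneas beside them. The 2 genotypes overlap for Col4a1 over Col4a2, Col6a1 over Col6a2 and Col8a1 over Col8a2 and do not for the other 3 pairs.

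Both genes of Descemet's membrane collagen, type VIII, were higher in transgenic corneas, without passing the test. Col8a2, in which mutations cause an endothelial dystrophy in people, had 306 and 320 CPM in transgenic corneas, against 231, 232 and 270 CPM in wild-type corneas (log2 fold change 0.36 ± 0.10, edgeR adjusted p = 0.543). Col8a1 had 101 and 114 CPM, against 67.1, 78.7 and 93.1 CPM (0.44 ± 0.14, edgeR adjusted p = 0.599). Wild-type cornea 3 lay nearest to the transgenic corneas in both, as it did for Col4a3 and Col4a4. Of the other endothelial markers, 5 of 6 had log2 fold changes above 0, with summed levels of 947 and 941 CPM in transgenic corneas, against 901, 840 and 846 CPM in wild-type ones. The exception was Slc4a11, a transporter of this cell layer, with 246 and 227 CPM in transgenic corneas and 264, 237 and 249 CPM in wild-type corneas.

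Steroid receptors such as MR bind palindromes of the half-site TGTTCT, and the collagen windows were searched for it. The full element, the half-site with its inverted copy, 3 bases between them, was found in 0 of the 32 collagen windows and in 0.012% of all windows. The half-site, on either strand, was found before 4 of the 32 genes (12.5%, against 17.5% of all windows): Col5a1, Col8a2, Col9a1 and Col11a2. It is shown for Col5a1 and Col8a2, which had an unadjusted p under 0.05, with the half-site in capitals as its reverse complement (RefSeq, build GRCr8); it ends 149 and 215 bases before their starts.
Col5a1, chr3:31606714-31606743, + strand: gccgcctcttccAGAACAcccaccgccgcg
Col8a2, chr5:143870537-143870566, + strand: acggtgccacacAGAACActccgtgcaccc
A match is a run of letters in a short window and does not show that the receptor binds there.

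The anchoring collagens, made by the epithelium, gave the smallest differences among the abundant classes. Col17a1, a transmembrane collagen of hemidesmosomes, was the collagen gene with the most counts, at 4657 and 4242 CPM in transgenic corneas and 3992, 3957 and 4383 CPM in wild-type corneas. The groups overlapped (log2 fold change 0.11 ± 0.11, edgeR adjusted p = 0.889; 0.04 without transgenic cornea 1 and 0.18 without transgenic cornea 2). Col7a1, which forms the anchoring fibrils, had 248 and 261 CPM, against 211, 213 and 230 CPM, without overlap (0.23 ± 0.09, edgeR adjusted p = 0.774). Epithelial markers, 3 of 8 of them higher, had log2 fold changes from -0.11 to 0.07. Their sums were 125494 and 99732 CPM in transgenic corneas 1 and 2, against 107494, 121561 and 113761 CPM in wild-type corneas 1 to 3. Transgenic cornea 1 was thus the highest library and transgenic cornea 2 the lowest. Summed over the collagen genes other than Col17a1, levels were 4828 and 5167 CPM in transgenic corneas, against 3789, 4004 and 4072 CPM in wild-type ones.

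All 4 tested type VI genes had log2 fold changes above 0 (median 0.27) and overlapping groups; for Col6a1 and Col6a2 wild-type cornea 2 lay between the transgenic corneas. Col6a1 had 136 and 147 CPM in transgenic corneas and 103, 142 and 108 CPM in wild-type corneas 1 to 3 (log2 fold change 0.27 ± 0.14, edgeR adjusted p = 0.833). Col6a2 had 146 and 159 CPM, against 115, 154 and 112 CPM (0.26 ± 0.14, edgeR adjusted p = 0.835). Without wild-type cornea 2 the log2 fold changes were 0.44 and 0.43. Col6a6 had 3.71 and 5.19 CPM, beside 3.43 to 3.89 CPM in wild-type corneas. Col6a5 had at most 13.1 counts in any library and Col6a4 at most 2.

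Col2a1 and the type IX genes Col9a1, Col9a2 and Col9a3, chains of the collagen of cartilage and vitreous, split the libraries in another way. Col9a1 had 8.60 and 4.74 CPM in transgenic corneas and 6.50, 0.245 and 0.956 CPM in wild-type corneas 1 to 3, so that wild-type cornea 1 lay 26.6-fold above wild-type cornea 2. Col9a2 had 6.01 and 4.97 CPM, against 6.10, 1.76 and 1.78 CPM. Col9a3 had 4.55 and 3.53 CPM, against 3.86, 0.587 and 1.05 CPM. Wild-type cornea 1 thus lay with the transgenic corneas in all 3 type IX genes, and the unadjusted edgeR p-values were 0.368, 0.248 and 0.191. Col2a1 had 40 and 23 counts in transgenic corneas and 17, 2 and 4 counts in wild-type ones. It entered the test through the transgenic libraries, since 1 wild-type library reached the minimum count of the filter, so its log2 fold change of 1.83 ± 0.69 describes a gene near that minimum.

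Markers of tissues next to the cornea also differed between libraries. The retina and pigment epithelium list (6 of 6 tested genes higher) summed to 16.7 and 19.9 CPM in transgenic corneas and to 16.1, 2.64 and 8.38 CPM in wild-type corneas 1 to 3, with wild-type corneas 2 and 3 lowest, as for type IX. The pigment cell, iris and ciliary body list (9 of 9 higher) summed to 94.1 and 170 CPM, against 53.2, 13.3 and 39.7 CPM. The sclera and cartilage-like list (6 of 7 higher) summed to 160 and 202 CPM, against 146, 104 and 101 CPM; its gene Acan, the large proteoglycan of cartilage, had 0.733 and 1.496 CPM, against 0.939, 0.147 and 0.501 CPM. Lens genes (0 of 8 tested higher) summed to 17.5 and 9.996 CPM in transgenic corneas and to 147, 33.0 and 25.7 CPM in wild-type ones. No marker of the retina, pigment and sclera lists was at 0 in all 3 wild-type corneas. In the pigment list, Best2 had 31 and 31 counts in transgenic corneas and 4, 3 and 2 in wild-type corneas 1 to 3. Oca2 had 18 and 60 counts, against 9, 5 and 8, and Slc45a2 had 22 and 77, against 12, 1 and 1. Pde6b of the retina list had 13 and 20, against 12, 2 and 4. These genes entered the test through the transgenic libraries, so 9 of 9 and 6 of 6 were partly set by the filter. The part of these tissues in the collagen values was not tested. The median log2 fold change of the collagen genes was 0.44 and 0.26 without transgenic corneas 1 and 2, and 0.33, 0.35 and 0.31 without wild-type corneas 1, 2 and 3.

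**Figure D4:**
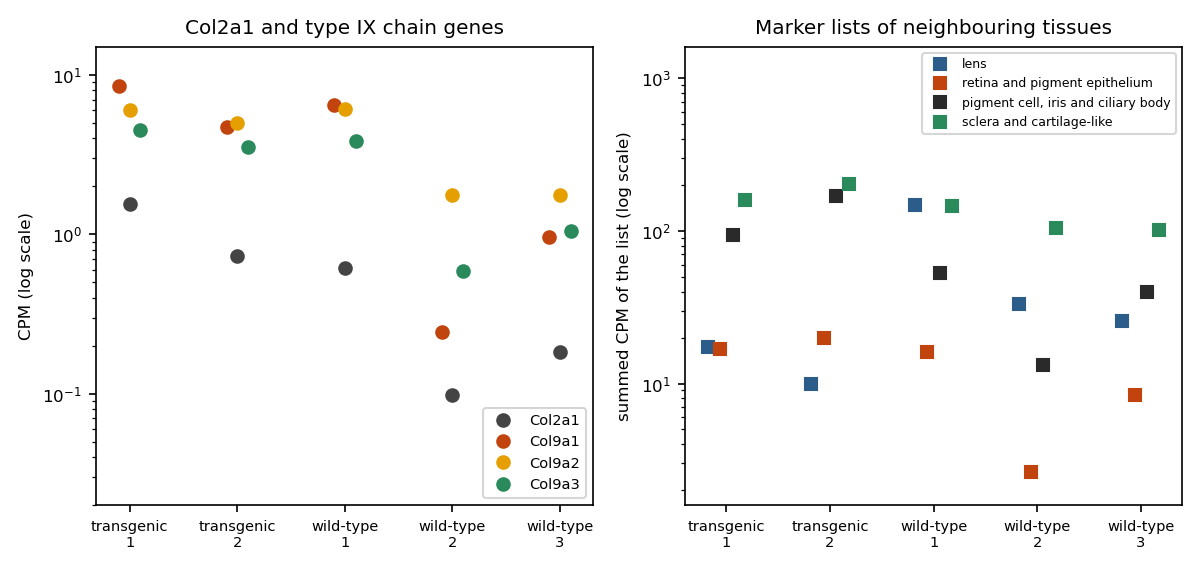
Left, CPM of Col2a1 and the 3 type IX genes in each library on a log scale; right, the summed CPM of 4 marker lists on a log scale. Wild-type cornea 1 lies with the transgenic corneas for the type IX genes and the retina list and above all other libraries for the lens list.

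Among the remaining collagens, Col18a1 and Col15a1, which make the multiplexins of vessel and epithelial basement membranes, went in opposite directions with wild-type cornea 1 high in both. Col18a1 had 36.3 and 42.7 CPM in transgenic corneas, against 59.3, 40.1 and 41.3 CPM in wild-type corneas (log2 fold change -0.25 ± 0.19, edgeR adjusted p = 0.861; -0.04 without wild-type cornea 1 and -0.14 without transgenic cornea 1). Col15a1 had 4.86 and 5.95 CPM, against 5.52, 2.10 and 3.69 CPM (0.51 ± 0.36, edgeR adjusted p = 0.860; 0.91 without wild-type cornea 1 and 0.23 without wild-type cornea 2). Col10a1, a short-chain collagen of growth-plate cartilage, had 5.74 and 11.3 CPM, against 6.07, 3.82 and 4.10 CPM (0.86 ± 0.32, edgeR adjusted p = 0.736), and its log2 fold change was 0.30 without transgenic cornea 2. Col25a1, a transmembrane collagen known from neurons, had 9.02 and 11.2 CPM, against 11.6, 7.44 and 7.60 CPM (0.19 ± 0.22, edgeR adjusted p = 0.912; between 0.02 without transgenic cornea 2 and 0.44 without wild-type cornea 1). Col28a1 had 35 and 39 counts in transgenic and 44, 38 and 37 counts in wild-type corneas, or 1.35 and 1.24 CPM against 1.59, 1.86 and 1.68 CPM. Col13a1 stayed at or below 34 counts per library, and Col26a1 was at 0 in all 5.

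Each of the 41 genes had at least 1 row among the 51 collagen rows of the isoform table, but for 19 genes the named isoforms held under 90% of the gene's counts in some library. The table also has 26948 isoform rows without a gene name, and whether these hold the remaining counts was not tested. For Col1a1 the named isoform held 73.0% and 71.3% of the gene's counts in transgenic corneas, against 56.6%, 61.0% and 69.1% in wild-type ones. For Col5a2 the shares were 37.8% and 40.2%, against 35.5%, 24.3% and 24.5%, and for Col4a5 61.2% and 60.2%, against 67.3%, 72.6% and 72.1%. These genes are examples chosen after their values were seen: of the 19 genes, 4 had shares higher in both transgenic corneas than in any wild-type one (Col1a1, Col4a4, Col5a1 and Col5a2), 3 had lower ones (Col2a1, Col4a5 and Col25a1), 11 overlapped and Col6a4 had no counts in some libraries. The shares were not tested, and how often such shares separate over all genes was not computed, so little is read from these counts. For Col2a1 the shares rest on 40 and 23 counts in transgenic corneas and 17, 2 and 4 in wild-type ones. Estimates of single isoforms can be unstable: of 2 Col11a2 isoforms, ENSRNOT00000045533 had 153 and 0 counts in transgenic corneas and 90.8, 78.0 and 0 counts in wild-type ones, while ENSRNOT00000084117 had 24.9 and 214 counts, against 23.7, 10.2 and 180 counts. The 2 rows traded places between libraries of the same genotype.

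No collagen isoform passed the edgeR test among 40 tested, as none of the 27110 isoforms did (0%). Unadjusted p-values were under 0.05 for 14 of the 40, all 14 with higher values in transgenic corneas, against 2.31% of all isoforms upward. For 18 genes the named isoforms held at least 99% of the counts in every library with counts. Their rows largely repeat the gene values, so the 14 are not a separate result. Col5a1 isoform ENSRNOT00000086352 had 34.5 and 28.1 CPM in transgenic corneas, against 17.0, 15.3 and 18.8 CPM in wild-type corneas (log2 fold change 0.88 ± 0.15, edgeR adjusted p = 0.947). Its sister ENSRNOT00000012334 had 35.6 and 38.7 CPM, against 22.7, 27.5 and 27.2 CPM (0.53 ± 0.12, edgeR adjusted p = 0.99995). DESeq2 called 6 collagen isoforms, of Col1a1, Col4a2, Col4a4, Col5a1, Col5a2 and Col12a1, where it called 0.975% of all isoforms tested. Of these genes Col1a1, Col4a4, Col5a1 and Col5a2 are also the 4 whose named share was higher in both transgenic corneas.

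Genes that fold, modify and mature collagen were described as a list beside the chains. Of 39 listed, 30 were in the table and tested, and 24 of these had log2 fold changes above 0 and 0 passed, with a median of 0.29. P4ha1, a subunit of prolyl 4-hydroxylase, had 38.0 and 41.0 CPM in transgenic corneas, against 29.0, 29.4 and 31.3 CPM in wild-type corneas (0.40 ± 0.10, edgeR adjusted p = 0.492). Pcolce, which speeds the cleavage of procollagen, had 62.0 and 73.0 CPM, against 55.2, 51.3 and 50.4 CPM (0.37 ± 0.10, edgeR adjusted p = 0.514). Both had groups that did not overlap. P4hb and Ppib, folding factors that serve many secreted proteins, had log2 fold changes of -0.01 ± 0.10 and -0.04 ± 0.09.

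Collagen receptors had 8 of 9 tested genes above 0 (median 0.29) and 0 passing. Ddr2, a receptor kinase for fibrillar collagen, had 32.2 and 34.5 CPM in transgenic corneas, against 25.2, 19.7 and 19.6 CPM in wild-type corneas (0.63 ± 0.14, edgeR adjusted p = 0.404). Ddr1, its epithelial relative, had 474 and 504 CPM, against 621, 438 and 587 CPM. Itga10, an integrin chain known from cartilage, had 1.27 and 1.91 CPM, against 0.975, 0.391 and 0.546 CPM (1.29 ± 0.48, edgeR adjusted p = 0.731). The breakdown list counts the protease inhibitors Timp1 and Timp3 together with the proteases. Of its 7 tested genes 6 were above 0 (median 0.33) and 0 passed. The other was the gelatinase Mmp9, at 6 and 6 counts in transgenic and 54, 18 and 4 counts in wild-type corneas. Timp3, an inhibitor of matrix proteases, had 30.03 and 41.5 CPM, against 21.2, 16.6 and 25.4 CPM (0.76 ± 0.20, edgeR adjusted p = 0.531), and Mmp2, the other gelatinase, had 38.4 and 49.6 CPM, against 36.4, 22.8 and 28.2 CPM (0.59 ± 0.21, edgeR adjusted p = 0.731). Among keratocyte markers, the small proteoglycan genes had log2 fold changes of 0.56 ± 0.13 for Prelp, 0.54 ± 0.11 for Bgn, 0.52 ± 0.11 for Fmod, 0.29 ± 0.11 for Kera, 0.07 ± 0.10 for Dcn and -0.01 ± 0.18 for Lum.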

How the data were processed

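Whole-cornea RNA was compared between 2 transgenic and 3 wild-type libraries; genotype was the only difference the labels name. The values are expected counts per gene and per isoform as deposited by the authors, neither normalized nor log-transformed in the files. The submitters' processing notes name RSEM 1.2.28, STAR 2.5.3a, fastp, FastQC, edgeR 3.28.0, DESeq2 1.26.0 and build rn6, without saying which step each served. No strand setting was found in the labels. Counts of 7 collagen genes (Col4a1 to Col4a4, Col6a5, Col6a6 and Col20a1) are not whole, as where reads are divided between features, and are less certain.

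Here the expected counts were rounded, filtered with filterByExpr (minimum count 10), scaled by TMM and fitted in R 4.3.3 with edgeR 4.0.16 (quasi-likelihood F test, robust fit, two-sided). P-values were adjusted by Benjamini-Hochberg over all genes, or all isoforms, with a threshold of 0.05. SE is the size of the log2 fold change divided by the square root of F. The fit was tested on simulated counts. Alternatives were DESeq2 1.42.0, voom from limma 3.58.1, DESeq2 size factors in edgeR, no filter, a replicate block and leaving out each library. Named with full statistics were the 2 genes of highest mean CPM and the 2 of smallest p in each class, and the 2 of smallest p in each pathway list; other genes outside the collagens, and the isoforms, were chosen after their values were seen. Members, classes, lists and ratios were chosen with earlier results of these data known. RefSeq tables (GRCr8) held all 41 symbols and gave the sequences printed.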

Additional observations from a re-analysis of the deposited data

How the results depend on the processing

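No collagen gene passed under edgeR with other size factors, without the filter or with any library left out, nor under limma voom. DESeq2 called 2 genes and 6 isoforms; the cause was not tested. The median log2 fold change of collagen genes ran from 0.26 to 0.44 over the libraries left out, and the number with unadjusted p under 0.05 from 9 to 19. All 20 genes named in full kept the sign of their log2 fold change under all 10 alternatives. Labels number the libraries alike in both genotypes. Deviations of same-numbered libraries from their group means had correlations of -0.005 and -0.11. The 2 transgenic libraries deviate from their mean by equal and opposite amounts, so these are not 2 separate checks of pairing. With the replicate block 0 collagen genes were called, 12 had an unadjusted edgeR p under 0.05 and the median was 0.31. No transgenic library is numbered 3, so in that fit wild-type cornea 3 gave no information on genotype. The fit without wild-type cornea 3 likewise had 12 such genes and a median of 0.31, so the block is not a separate check. Depth limits Col2a1, Col6a5 and Col13a1, with at most 40 counts in any library. The isoform alternatives and the alternatives of the unadjusted count were added after seeing the data.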
